A study of Mus musculus with 57 samples.

Results

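Glucocorticoid signalling was followed through 9 listed genes, namely 2 receptors and 7 transcripts known to respond to them, in the brains of mice that had drunk ethanol by choice. Every probeset (a set of short probes for 1 transcript) carrying one of these symbols on the Affymetrix mouse expression array was taken, which gave 18 of the 22626 probesets for 8 of the 9 genes. All 18 were among the 19815 probesets that reached a log2 signal of 4.5 on at least 1 array. No probeset was annotated to *Nr3c2*, the mineralocorticoid receptor, so it has no value here. Tissue came from nucleus accumbens (NAc, 19 arrays), the ventral midbrain including the ventral tegmental area (VMB, 19 arrays) and prefrontal cortex (PFC, 19 arrays) of young adult male C57Bl/6NCrl mice. All animals carried the same inbred background and had the same access: bottles of 10% (w/v) ethanol and of tap water for 18 hours a day, in 4 blocks of 4 daily sessions with 4 days off between blocks, and dissection 6 days after the last of 16 sessions. There was no ethanol-naive group, and each array held RNA of 1 mouse and 1 region. The ethanol intake of single mice is not in the sample labels, and the relation of these genes to intake was not analysed here.

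Corticosterone, the main glucocorticoid of the mouse, crosses the cell membrane and binds the glucocorticoid receptor, which is held ready by Hsp90 and its cochaperones. The hormone-bound receptor moves to the nucleus, where it binds short palindromic DNA elements and raises transcription of target genes, or dampens that of inflammatory genes. *Nr3c1* encodes the receptor. *Fkbp5* encodes an Hsp90 cochaperone that lowers the hormone affinity of the receptor and is itself induced by it, a short feedback loop. *Sgk1* encodes the serum- and glucocorticoid-regulated kinase, *Tsc22d3* the leucine zipper protein GILZ, and *Nfkbia* the inhibitor IκBα that keeps NF-κB in the cytoplasm. *Cdkn1a* encodes the cyclin-dependent kinase inhibitor p21, and *Mt1* and *Mt2* encode metallothioneins, small metal-binding proteins induced by metals as well as by glucocorticoids.

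Arrays of 1 region resembled each other closely, with a median r between arrays of 0.992 in NAc, 0.990 in VMB and 0.994 in PFC across genes, which are not independent replicates. Array medians of the deposited log2 values lay at 6.26 to 6.32 in NAc, 5.79 to 5.86 in VMB and 5.66 to 5.7 in PFC, so the regions were set to a common scale by quantile normalization before levels were compared, while values within a region are given as deposited. On the deposited scale the median probeset differed by 0.72 log2 for NAc minus PFC, 0.18 for VMB minus PFC and 0.55 for NAc minus VMB, and on the common scale by 0.03, 0.02 and 0.02. The region labels fitted the tissue: the mean level of 3 striatal neuron markers was at 9.19 to 9.85 in NAc, and the highest value outside NAc was 6.82. The mean of 4 dopamine neuron markers was at 9.25 to 9.76 in VMB and no higher than 6.56 elsewhere, and that of 2 cortical excitatory neuron markers was at 8.11 to 8.75 in PFC and no higher than 6.76 elsewhere. The title of 1 PFC array, number 20, names PFC and its other fields the ventral tegmental area. Its mean correlation was 0.957 with NAc, 0.941 with VMB and 0.995 with PFC arrays, its cortical markers were at 8.45 and its dopamine markers at 5.52, and it was kept as PFC. Arrays carry a number from the labels, which do not state that 1 number is 1 mouse. NAc has no array numbered 10, VMB none numbered 20 and PFC none numbered 6.

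The regulatory DNA of 3 of the genes is shown because their levels moved most widely across the arrays of VMB (*Sgk1*) or moved together (*Mt1* and *Mt2*, which lie beside each other on chromosome 8). Windows of 300 bases, 250 before and 50 after an annotated start, were taken from RefSeq for the build GRCm38.p6, where 8 of the 9 symbols matched 16 windows, 6 of them of *Sgk1*. The *Sgk1* window printed was picked from those 6 because it holds the full letters of the glucocorticoid response element, so its match is no separate result. Capitals mark matches, on either strand, to the glucocorticoid response element in the *Sgk1* and *Mt1* windows and to the core of the metal response element in the *Mt1* and *Mt2* windows.
Sgk1 (GRCm38.p6 chr10:21993640-21993939, + strand): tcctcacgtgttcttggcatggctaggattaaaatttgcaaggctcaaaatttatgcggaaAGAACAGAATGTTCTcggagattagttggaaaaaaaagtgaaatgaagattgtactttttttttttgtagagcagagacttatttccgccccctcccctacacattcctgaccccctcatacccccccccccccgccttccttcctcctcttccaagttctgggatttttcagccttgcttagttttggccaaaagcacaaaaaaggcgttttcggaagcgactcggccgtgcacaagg
Mt1 (GRCm38.p6 chr8:94178839-94179138, + strand): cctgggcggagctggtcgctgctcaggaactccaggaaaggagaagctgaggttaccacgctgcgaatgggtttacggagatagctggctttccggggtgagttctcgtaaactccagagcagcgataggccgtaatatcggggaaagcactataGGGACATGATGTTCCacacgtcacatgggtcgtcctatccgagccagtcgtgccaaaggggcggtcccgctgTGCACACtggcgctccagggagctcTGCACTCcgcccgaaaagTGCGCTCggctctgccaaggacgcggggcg
Mt2 (GRCm38.p6 chr8:94172368-94172667, + strand): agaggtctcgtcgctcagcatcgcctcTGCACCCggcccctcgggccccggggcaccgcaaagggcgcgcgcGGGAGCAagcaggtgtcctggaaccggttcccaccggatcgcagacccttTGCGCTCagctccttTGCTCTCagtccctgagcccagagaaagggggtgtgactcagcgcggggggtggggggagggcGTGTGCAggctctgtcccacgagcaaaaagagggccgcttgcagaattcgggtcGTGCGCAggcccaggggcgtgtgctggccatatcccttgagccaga
The full letters of the element, AGAACA and TGTTCT with any 3 bases between them, which read the same on both strands, occurred in 1 of the 16 windows, that of *Sgk1* printed here, beginning at position -189 from the start. They occurred in 3 of all 32851 windows searched (0.00913%). The looser letters, NGNACA and TGTNCN with any 3 bases between them, which include every match of the full letters, were found in 2 of the 16 windows and in 0.472% of all windows, and the additional window was that of *Mt1*, where the match began at -95. The metal core TGCNCNC occurred 3 times in the *Mt1* window and 6 times in the *Mt2* window, in 8 of the 16 windows and in 51.0% of all windows. A match describes letters and is no measurement of binding, and the array does not show which start of *Sgk1* was used.

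On the arrays numbered 10, from VMB and PFC, most of the transcripts known to respond to glucocorticoids were at their highest among the arrays of the region, and the receptor transcript was not. *Fkbp5* was at 8.41 on the VMB array numbered 10, against 7 to 7.31 on the other 18 (median 7.16), and at 8.63 on the PFC array numbered 10, against 6.90 to 7.52 (median 7.16). These gaps were 1.25 log2 above the median in VMB, or 2.38-fold, and 1.47 in PFC, or 2.76-fold, and neither value overlapped the range of the others. The second *Fkbp5* probeset was highest on the same arrays, at 6.64 in VMB, against 5.77 to 6.43, and at 6.36 in PFC, against 5.33 to 6.01. The number 10 was singled out after its values were seen, so these are descriptions with no test, and the correlations and region differences of the 8 genes that rest on them are also given without them.

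*Sgk1* was at 10.63 on the VMB array numbered 10, against 7.92 to 9.85 on the others (median 8.72), which is 3.77-fold above the median. In PFC it was at 8.82, against 7.85 to 8.38 (median 8.13), or 1.61-fold. *Sgk1* was therefore highest on this number in both regions, with the wider gap in VMB. *Nfkbia* was at 10.92 in VMB, against 9.35 to 10.06, and at 9.89 in PFC, against 8.94 to 9.54. Of its 4 probesets, 3 were highest on the array numbered 10 in both regions, and the dim probeset 1420089_at was not the highest in either region. *Tsc22d3* reached 8.13 in PFC, against 7.26 to 7.87, whereas in VMB its 9.79 equalled the next array to 2 decimals, so only PFC showed a gap. Its probeset 1425281_a_at was highest in PFC, at 7.97, against 6.95 to 7.58, but in VMB was at 9.12, within 8.25 to 9.45. Probeset 1425557_x_at was highest in VMB, at 7.32, against 6.58 to 7.18, but in PFC was at 7.19, within 6.92 to 7.25.

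By their brightest probesets, *Cdkn1a* and the metallothionein genes were highest on the array numbered 10 in VMB alone. *Cdkn1a* was at 7.71 on the VMB array numbered 10, against 5.61 to 6.41 on the others (median 5.86), or 3.60-fold, while in PFC its 6.76 lay inside the range of 6.34 to 6.98. *Mt1* was at 11.71 in VMB, against 11.18 to 11.49, and *Mt2* at 11.09, against 10.18 to 10.81, while in PFC both lay inside the range of the others. The dim second *Mt1* probeset was not highest on the VMB array numbered 10, at 4.96, against 4.69 to 5.16. *Nr3c1*, the receptor itself, was at 8.61 in VMB, inside the range of 8.36 to 9.04, and at 8.30 in PFC, below all others at 8.48 to 8.80. In PFC the other 2 *Nr3c1* probesets lay inside their ranges, so the low value rests on 1 probeset. Of all 19815 probesets, 6.42% were highest on the array numbered 10 in VMB and 7.11% in PFC. By the brightest probeset of each gene, 7 of 8 genes were highest on that array in VMB and 4 of 8 in PFC. Those 4, *Fkbp5*, *Sgk1*, *Tsc22d3* and *Nfkbia*, were highest on it in both regions by these probesets. For *Tsc22d3* in VMB the value equalled that of another array to 2 decimals. The share of all probesets highest on it in both regions is not given here.

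**Figure D1:**
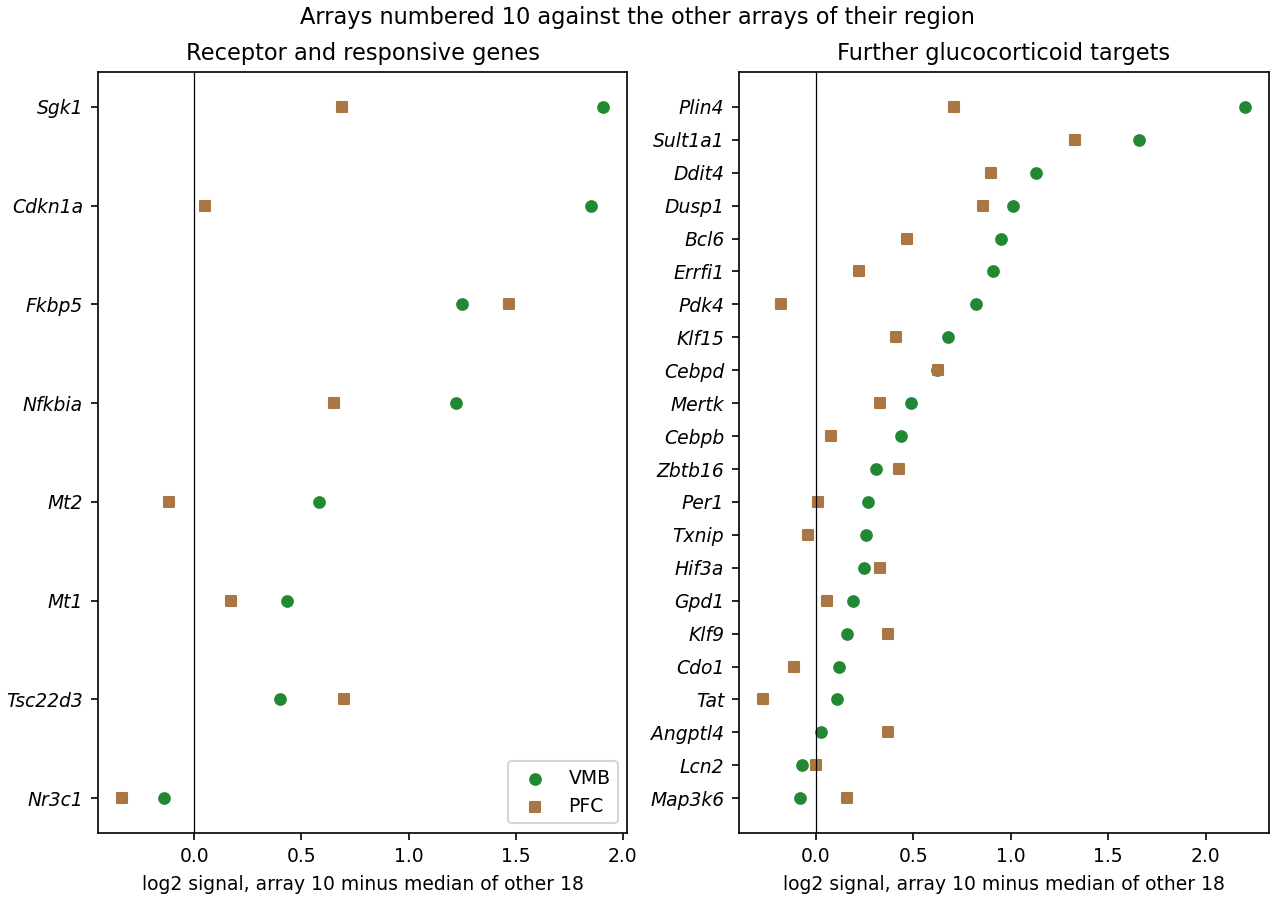
Difference in log2 signal between the array numbered 10 and the median of the other 18 arrays of its region (x axis) for 8 receptor and responsive genes and for 22 further glucocorticoid targets (y axis), where circles are VMB and squares PFC. *Fkbp5* lies at 1.25 in VMB and 1.47 in PFC, *Cdkn1a* at 1.85 in VMB and 0.05 in PFC, and *Nr3c1* left of 0 in both.

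A wider list of 25 glucocorticoid targets, 22 of them measured, was examined on the same arrays. The array numbered 10 was highest for 13 of the 22 in VMB and 12 of the 22 in PFC, where 6.42% and 7.11% of all probesets were. Highest on it in both regions were 10 genes: *Bcl6*, *Cebpd*, *Ddit4*, *Dusp1*, *Errfi1*, *Klf15*, *Klf9*, *Mertk*, *Plin4* and *Sult1a1*. The share of all probesets highest on it in both regions is not given here. No other VMB array was highest for more than 2 of the 22 and no other PFC array for more than 4. *Plin4*, which coats lipid droplets, was at 6.88 in VMB, against 4.38 to 4.96, and at 4.73 in PFC, against 3.78 to 4.22. *Sult1a1*, a phenol sulfotransferase, was at 8.19 in VMB, against 6.06 to 7.04, and at 7.26 in PFC, against 5.29 to 6.36. *Ddit4*, an inhibitor of the mTORC1 kinase, was at 8.97 in VMB, against 7.51 to 8.17, and at 8.09 in PFC, against 6.92 to 7.71, and *Dusp1*, a phosphatase of MAP kinases, was 1.01 log2 above the median in VMB and 0.86 in PFC. In all of these the array numbered 10 stood clear of the other 18. The median over the 22 genes was 0.38 above the median array in VMB and 0.33 in PFC, and the same median over all genes is not given here. *Per1*, *Map3k6*, *Lcn2*, *Gpd1*, *Cdo1*, *Tat* and *Angptl4* were not highest on it in either region.

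Transcripts of the receptor machinery showed this less. Of 14 measured partners, which are chaperones, cochaperones, coregulators and a hormone-activating enzyme, 1 was highest on the VMB array numbered 10 and 3 on the PFC array. Among all probesets 6.42% and 7.11% were highest on these arrays. Lowest on them were 1 partner in VMB and 2 in PFC, and the median differences of the partners were 0.00 and 0.03. *Hsd11b1*, the enzyme that regenerates active glucocorticoid inside cells, was below all other arrays of its region, at 8.34 in VMB, against 8.39 to 8.92, and at 7.42 in PFC, against 7.65 to 8.04. The chaperone gene *Dnajb1* was above them, at 8.82 in VMB, against 8.28 to 8.70, and at 9.56 in PFC, against 9.17 to 9.48. Cell type markers on these arrays were as follows: the mean of 7 microglial markers was the lowest of 19 in both regions, at 7.14 in VMB (highest 7.48) and 7.42 in PFC (highest 7.82). The mean of 8 endothelial and mural markers was 6.31 in VMB, within 6.11 to 6.50, and 5.97 in PFC, the lowest there (highest 6.41). The means of 8 oligodendrocyte markers, 10.89 within 10.83 to 11.16 in VMB and 7.80 within 7.77 to 9.14 in PFC, and of 2 blood markers, 5.01 within 4.67 to 5.75 in VMB and 4.45 within 4.37 to 4.87 in PFC, lay inside the range. The mean of 8 astrocyte markers was 9.53 within 9.43 to 9.73 in VMB and the lowest in PFC, at 8.80 (highest 9.10). The mean of 3 choroid plexus markers was 5.16 within 4.80 to 6.97 in VMB and the lowest in PFC, at 4.36 (highest 4.65). The part of cell composition in these values was not tested. NAc has no array numbered 10 here. Its array numbered 20 was highest for 8 of the 22 targets and 2 of the 8 genes, and for 5.35% of all probesets, and its array numbered 15 for 3 of the 8 genes and 0 of the targets. The whole NAc range of *Fkbp5* was 7.86 to 8.33, and its highest NAc array was number 16.

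Arrays of the same number were then compared between regions, to ask whether a gene that was high in 1 region was high in the other. For *Fkbp5* in VMB and PFC, over 18 shared numbers, Pearson's r was 0.965 (permutation p = 0.00022, two-sided) and Spearman's rho 0.657 (permutation p = 0.00356). The adjusted p over all probesets was 2.05e-06, where 0.0202% of them passed 0.01. Without the number 10, r was 0.609 over 17 numbers (permutation p = 0.00931, rho 0.593), and the adjusted p was 0.871, where 0.00505% of probesets passed, so the call rested on that number. Leaving out numbers 10 and 8, the farthest from the VMB median, gave r = 0.652. The second *Fkbp5* probeset gave r = 0.416, and 0.0218 without the number 10.

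*Nfkbia* gave r = 0.817 (rho 0.733, permutation p = 0.00061 and 0.00072, adjusted p = 0.0701) between VMB and PFC, and r = 0.549 without the number 10 (permutation p = 0.0226). *Sgk1* gave r = 0.670 (rho 0.515, permutation p = 0.00314 and 0.0295), and 0.413 without it (permutation p = 0.102). *Mt1* gave r = 0.561 (rho 0.653, permutation p = 0.0182 and 0.0042), and 0.574 without it, and its adjusted p was 0.819. *Tsc22d3* gave r = 0.511 (rho 0.480, permutation p = 0.0327 and 0.0454), and 0.379 without it (permutation p = 0.135). *Cdkn1a* gave r = -0.0293, and -0.459 without it (permutation p = 0.0636), *Nr3c1* 0.0388, and -0.0842 without it, and *Mt2* 0.0904, and 0.232 without it. Of the 24 comparisons, 8 genes in 3 pairs of regions, *Fkbp5* in VMB and PFC alone passed over all probesets. With NAc, the highest value was for *Mt2* in NAc and VMB, at r = 0.507 (rho 0.432, permutation p = 0.0299 and 0.074, adjusted p = 0.797).

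**Figure D2:**
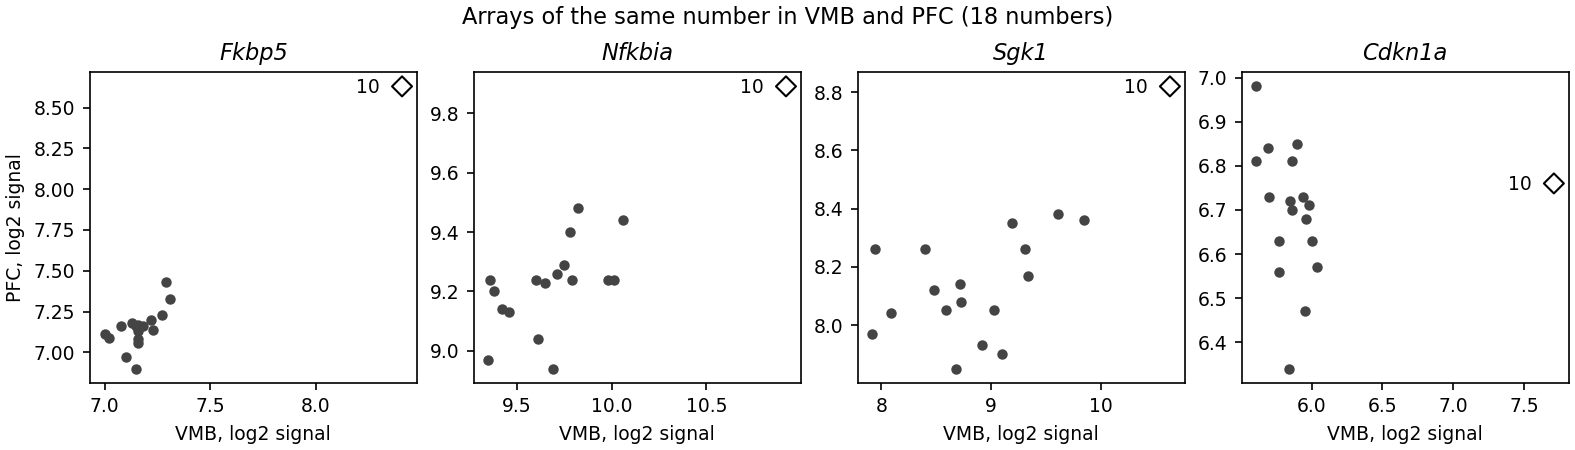
PFC log2 signal (y axis) against VMB log2 signal (x axis) of arrays with the same number for *Fkbp5*, *Nfkbia*, *Sgk1* and *Cdkn1a*, deposited values, 18 numbers, with the number 10 as an open diamond. For the first 3 genes the diamond is highest on both axes, and for *Cdkn1a* it is highest in VMB only, at 7.71.

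Within a region, the 8 genes form 28 pairs, 84 over the regions, and a pair was called when 1 gene predicted the other at adjusted p under 0.01 in a limma fit over all probesets. Each pair has 2 such fits, with either gene as predictor, and the adjusted p printed for a pair is the lower of the 2. In NAc 2 pairs were called, in VMB 4 and in PFC 0, where 7.51%, 2.01% and 0.012% of all probesets were called over the same 8 fits. Those shares count single tests, whereas a pair could pass in either of its 2 fits. An unadjusted permutation p under 0.05 was found for 9 of the 28 pairs in NAc, 18 in VMB and 11 in PFC, with no share over all probesets beside it. The VMB and PFC counts include the arrays numbered 10. In PFC, r of *Fkbp5* with *Sgk1* was 0.700 with that array and 0.218 without it, while *Mt1* with *Mt2* gave 0.724 and 0.798. With ranks in place of values in these fits, 1 pair was called in NAc and 0 in VMB. *Sgk1* and *Tsc22d3* had r = 0.686 in NAc (rho 0.454, permutation p = 0.00146 and 0.0524), 0.811 in VMB (rho 0.784, permutation p = 4e-05 and 0.00013) and 0.795 in PFC (rho 0.659, permutation p = 0.00016 and 0.00272). The pair was called in NAc (adjusted p = 0.00219) and VMB (0.000419) and not in PFC (0.0208). In its other fit the adjusted p was 0.0264 in NAc, 0.0135 in VMB and 0.0426 in PFC, so each call holds in 1 direction only. Its r without the 2 arrays farthest from the *Sgk1* median was 0.539 in NAc, 0.757 in VMB and 0.622 in PFC. With each array left out in turn, the pair was called in 18 of 19 cases in NAc and 19 of 19 in VMB. The NAc call was lost without array 1, where r was 0.483 (adjusted p = 0.0691, limma). Without the number 10 it was 0.802 in VMB, still called at 0.000656, and 0.598 in PFC. The VMB call was lost with ranks (adjusted p = 0.0112) and with the first principal component of VMB as a covariate (adjusted p = 0.326).

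*Nfkbia* went with *Sgk1* and *Mt2* in VMB. *Sgk1* and *Nfkbia* gave r = 0.865 (rho 0.812, permutation p = 1e-05, the smallest the permutations can give, and 9e-05, adjusted p = 0.000569), and 0.783 without the number 10 (adjusted p = 0.04). *Mt2* and *Nfkbia* gave r = 0.796 in VMB (rho 0.700, permutation p = 8e-05 and 0.00113, adjusted p = 0.00811), and 0.662 without the number 10 (adjusted p = 0.0492). The same pair gave r = 0.658 in NAc (rho 0.704, permutation p = 0.00149 and 0.00117, adjusted p = 0.00881) and 0.109 in PFC. In its other fit the adjusted p was 0.0182 in VMB and 0.0453 in NAc. With each array left out in turn, the pair was called in 6 of 19 cases in VMB and 5 of 19 in NAc, so both calls lay close to the threshold. The remaining VMB call, *Fkbp5* and *Cdkn1a* at r = 0.907 (rho 0.351, permutation p = 0.0101 and 0.141, adjusted p = 4.3e-05), rested on 1 array, for without the number 10 its r was 0.214. With all arrays, this pair and *Sgk1* with *Nfkbia* passed in both of their VMB fits. The other VMB calls and the NAc calls passed in 1 fit only. Leaving that array out left 1 called pair in VMB, *Sgk1* and *Tsc22d3* (1.92% of all probesets over the 8 fits), and 0 in PFC (0.000631%). In VMB it also lowered the number of pairs with r over 0.5 to 6, against 18 of 28 with it. In PFC the number was 4 without it and 7 with it.

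The VMB r of *Fkbp5* with *Mt1* was less tied to that array, at 0.822 (rho 0.803, permutation p = 2e-05 and 9e-05), and 0.749 without it. The adjusted p of this pair was 0.0182 with the array and 0.88 without it. Without it the probesets of each gene did not run together in VMB, with r of -0.045 for *Fkbp5* and -0.0564 for *Mt1*. The neighbours *Mt1* and *Mt2* gave r = 0.526 in NAc, 0.797 in VMB and 0.724 in PFC (permutation p = 0.0221, 8e-05 and 0.00044, rho 0.497, 0.539 and 0.718), with 0.660 in VMB and 0.798 in PFC without the number 10, and adjusted p-values of 0.136, 0.0231 and 0.105. Cross-hybridization between these similar transcripts was not tested. In PFC, *Nr3c1* ran against *Fkbp5* at r = -0.642 (permutation p = 0.0173, rho -0.35), and without the number 10 at -0.121. In NAc, *Tsc22d3* ran against *Cdkn1a* at r = -0.599 (permutation p = 0.00564, rho -0.50, adjusted p = 0.0104). In VMB 23 of the 28 pairs were positive both with that array and without it. The 6 VMB pairs over 0.5 without it were those among *Sgk1*, *Tsc22d3* and *Nfkbia* (0.557 for *Tsc22d3* and *Nfkbia*), *Fkbp5* with *Mt1*, *Mt2* with *Nfkbia*, and *Mt1* with *Mt2*.

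**Figure D3:**
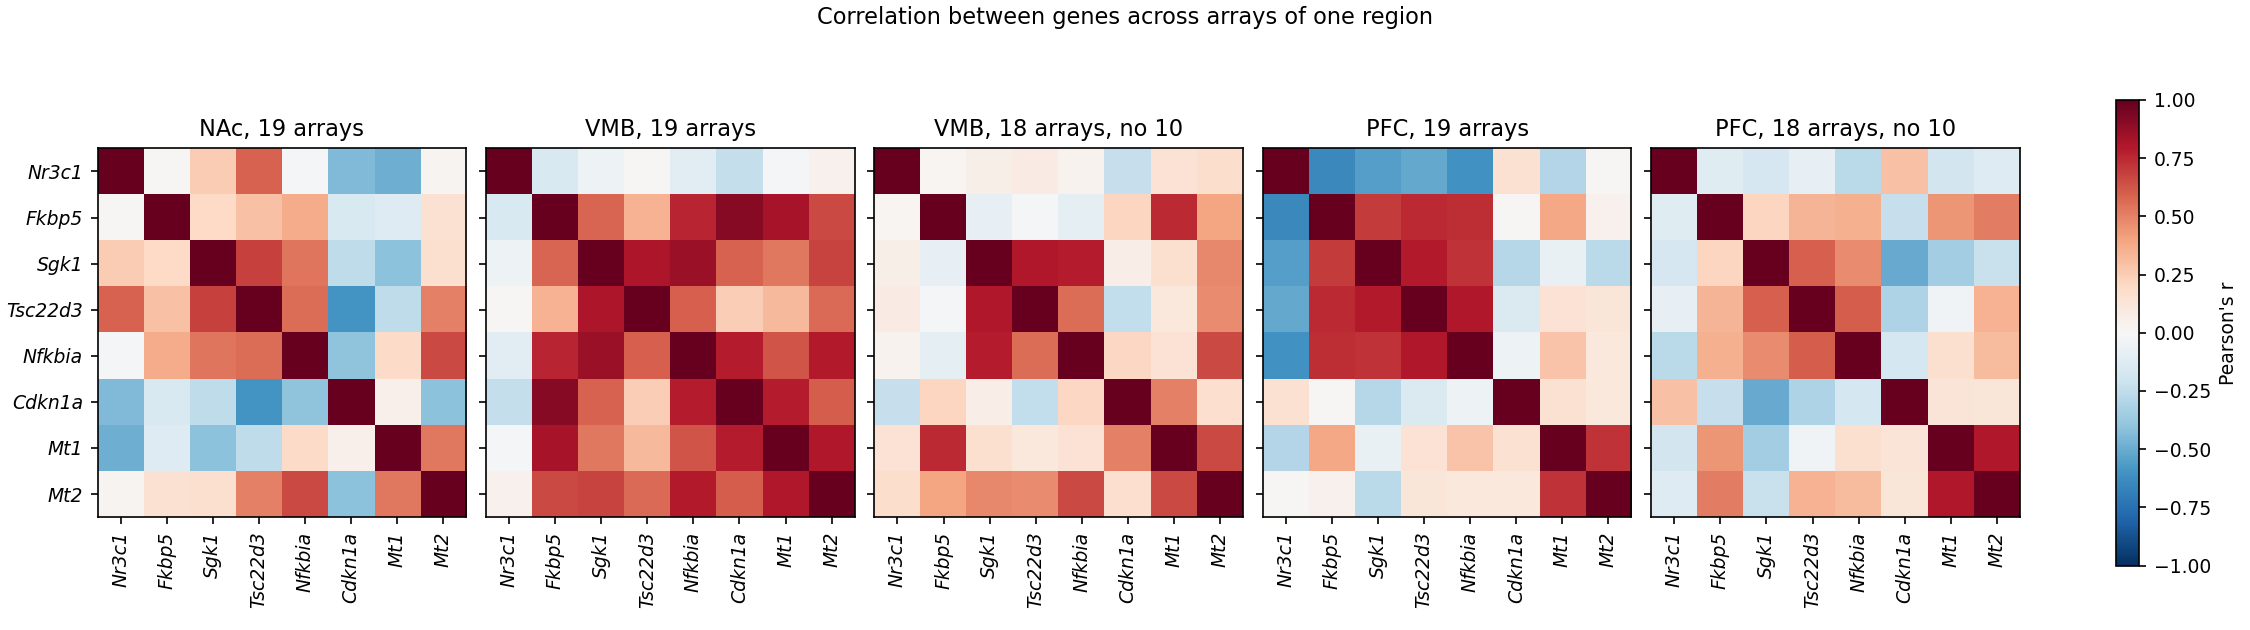
Pearson's r between the 8 genes (both axes) across the arrays of 1 region, as colour from -1 (blue) to 1 (red), for NAc, VMB, VMB without the array numbered 10, PFC, and PFC without it. In VMB *Fkbp5* and *Cdkn1a* are at 0.907 with that array and 0.214 without it, while *Sgk1* and *Tsc22d3* are at 0.811 and 0.802.

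The NAc calls stood against a high background. *Tsc22d3* in NAc had r with so many genes that 36.1% of all probesets were called in its fit, and 23.4% in that of *Nfkbia*, against 0.0151% for *Sgk1* and 0% for *Fkbp5*. Neither NAc pair was called once the leading principal component of NAc was added as a covariate. The NAc arrays numbered 1, 6 and 19 lay at one end of that component and held 12.2%, 10.7% and 10.8% of all highest values. The mean of 3 choroid plexus markers (4.39 to 4.89 in NAc) ran against *Tsc22d3* at r = -0.727 (adjusted p = 0.000267, limma) and against *Nfkbia* at -0.718 (0.000868). It also ran against *Mt2* at -0.603 (0.00935) and *Sgk1* at -0.574 (0.01). The mean of 2 blood markers (4.38 to 5.27) ran against *Tsc22d3* at -0.718 (0.00405). On the common scale both means had NAc medians, 4.62 and 4.52, near 4.5, the signal used as filter on deposited values. They are therefore weak measures of choroid plexus or blood in NAc. Of all probesets 48.9% were called with the choroid plexus mean and 7.96% with the blood mean. Their part in the correlations was not tested.

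The spread of these genes between arrays differed by region. *Sgk1* had an SD of 0.67 in VMB, above that of 99.8% of all probesets, and 0.54 without the number 10. *Tsc22d3* had an SD of 0.40 in NAc, above 97.8% of probesets. *Fkbp5* had an SD of 0.30 in VMB and 0.36 in PFC, and without the number 10 of 0.08 and 0.15, and its NAc SD of 0.11 lay above only 14.4% of probesets. *Nr3c1* had an SD of 0.15 in NAc, 0.16 in VMB and 0.12 in PFC, against a median probeset of 0.17, 0.17 and 0.14. By its brightest probeset the receptor transcript thus varied about as much as a typical probeset, and *Sgk1* in VMB varied far more than that. The other *Nr3c1* probesets varied more in NAc and VMB. Probeset 1421866_at had an SD of 0.57 in NAc, 0.64 in VMB and 0.33 in PFC, and 1460303_at of 0.23, 0.26 and 0.13.

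Over all 57 arrays, with region means removed, the genes most like each member were named as the 3 with the highest r, a description over arrays that include the number 10. For *Fkbp5* these were *Ddit4* (0.786), *Sult1a1* (0.765) and *Cyp4f15* (0.744), and without the number 10 their r was 0.435, 0.274 and 0.310. For *Cdkn1a* they were *Plin4* (0.731, or 0.189 without), *A2m* (0.667, or 0.356) and *Sult1a1* (0.594, or 0.239). For *Sgk1* they were *Nfkbia* (0.781, or 0.636), *Polr3e* (0.738, or 0.777) and *Dusp1* (0.734, or 0.609). So the likeness of *Fkbp5* and *Cdkn1a* to these genes fell when 1 number was left out. *Nfkbia* had *Sgk1*, *Ddit4* (0.779, or 0.548) and *Dusp1* (0.757, or 0.589), and *Tsc22d3* had *Eea1* (0.843), *Cirbp* (0.837) and *Srsf10* (0.827), at 0.876, 0.848 and 0.837 without the number 10. *Mt1* had *Mt2* (0.690, or 0.664), *Polr2i* (0.648, or 0.694) and *Rpl27* (0.645, or 0.616), and *Mt2* had *Snhg1* (0.709, or 0.694), *Mt1* and *Cstb* (0.682, or 0.696). *Nr3c1* had *Rora* (0.647, or 0.689), *Krt12* (0.645, or 0.633) and *Arap2* (0.620, or 0.648).

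The 22 further targets were then set against each of the 8 genes within a region. Their highest median r was with *Mt2* in VMB, at 0.533, and 0.290 without the number 10, followed by *Cdkn1a* in VMB, at 0.518, and 0.0459 without it. Their median r with *Fkbp5* was 0.0504 in NAc, 0.481 in VMB and 0.505 in PFC, beside medians over all genes of 0.0017, 0.0385 and 0.00371. Without the number 10 it was 0.153 in VMB and 0.162 in PFC. In the *Fkbp5* fits 3 targets were called in VMB and 3 in PFC, where 0.0757% and 0.0404% of all probesets were called in the positive direction, and 0 in each without that number. The difference between regions was not tested.

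The levels of the 8 genes were next compared between regions on the common scale, which asks where in these 3 regions each transcript is abundant. Of the 8, 3 differed for NAc minus PFC, 6 for VMB minus PFC and 5 for NAc minus VMB at adjusted p under 0.01 (limma), where 72.5%, 72.8% and 74.7% of all probesets did, so a difference between regions is the rule on this array. For NAc minus PFC, 2 were higher and 1 lower, where 38.6% of probesets were higher and 33.9% lower. For VMB minus PFC, 5 were higher and 1 lower, where 37.7% were higher and 35.2% lower. For NAc minus VMB, 2 were higher and 3 lower, where 39% were higher and 35.7% lower. RNA came from whole tissue, in which fewer cells of a type and less RNA per cell cannot be told apart. Levels of different genes were not set against each other. Without the arrays numbered 10 the counts were 5, 6 and 5. On the deposited scale, which carries the shift between regions given above, the called differences of *Tsc22d3* for NAc minus PFC (0.19), and of *Mt2* (0.29) and *Nfkbia* (0.17) for NAc minus VMB, had the opposite sign to those given here.

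*Tsc22d3* differed most. It lay at 6.37 to 7.81 in NAc (median 7.38), 9.12 to 9.99 in VMB (median 9.59) and 7.51 to 8.38 in PFC (median 7.70). Every VMB array was above every NAc and PFC array, while NAc and PFC overlapped. VMB minus PFC was 1.88 (SE 0.0864, n = 19 arrays each, adjusted p = 1.32e-28), or 3.67-fold, NAc minus VMB was -2.34 (adjusted p = 2.17e-33) and NAc minus PFC was -0.46 (adjusted p = 3.15e-06). Among all probesets 23.9% had no overlap in VMB against PFC, 23.1% in NAc against VMB, and 21.9% in NAc against PFC. *Tsc22d3* was the only one of the 8 genes to differ by more than 1 in a test against that size, higher for VMB minus PFC, where 2.97% of probesets were higher and 3.51% lower, and lower for NAc minus VMB, where 2.96% were higher and 2.82% lower. For NAc minus PFC, where 1.6% were higher and 2.01% lower, 0 of the 8 passed it (limma's treat), and 3 passed the test against no difference. Probeset 1425281_a_at gave 1.46 for VMB minus PFC and -2.32 for NAc minus VMB, and 1425557_x_at, whose suffix marks probes that may bind other transcripts, gave -0.17 (adjusted p = 0.00084) and -0.19. Probesets of the gene therefore disagreed in direction for VMB and PFC. The oligodendrocyte markers were also highest in VMB, with a mean of up to 10.32 in NAc, 10.83 to 11.16 in VMB and 7.77 to 9.14 in PFC, and their part was not tested.

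*Mt1* was lowest in PFC, at 11.48 to 11.79 in NAc (median 11.63), 11.39 to 11.93 in VMB (median 11.54) and 10.41 to 11.11 in PFC (median 10.88). All NAc and VMB arrays lay above all PFC arrays. The difference was 0.76 for NAc minus PFC (SE 0.0425, adjusted p = 2.97e-24) and 0.68 for VMB minus PFC (adjusted p = 3.03e-22), and 0.08 for NAc minus VMB, which did not pass (95% interval 0.00 to 0.16). That last difference depended on the scale, for it was 0.29 with array-median centring (adjusted p = 5.18e-08) and 0.80 on deposited values (1.13e-25), and both passed. The dim second probeset gave 0.13 and 0.06. *Mt2* was highest in VMB, with means of 10.41 ± 0.15 in NAc, 10.77 ± 0.20 in VMB and 10.30 ± 0.17 in PFC (SD, n = 19 each). VMB minus PFC was 0.46 (adjusted p = 6.25e-11) and NAc minus VMB -0.36 (7.32e-08), with overlapping arrays. The means of 8 astrocyte markers, a cell type known to express metallothioneins, were at 8.73 to 9.04 in NAc, 9.43 to 9.73 in VMB and 8.80 to 9.10 in PFC, and their part was not tested.

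**Figure D4:**
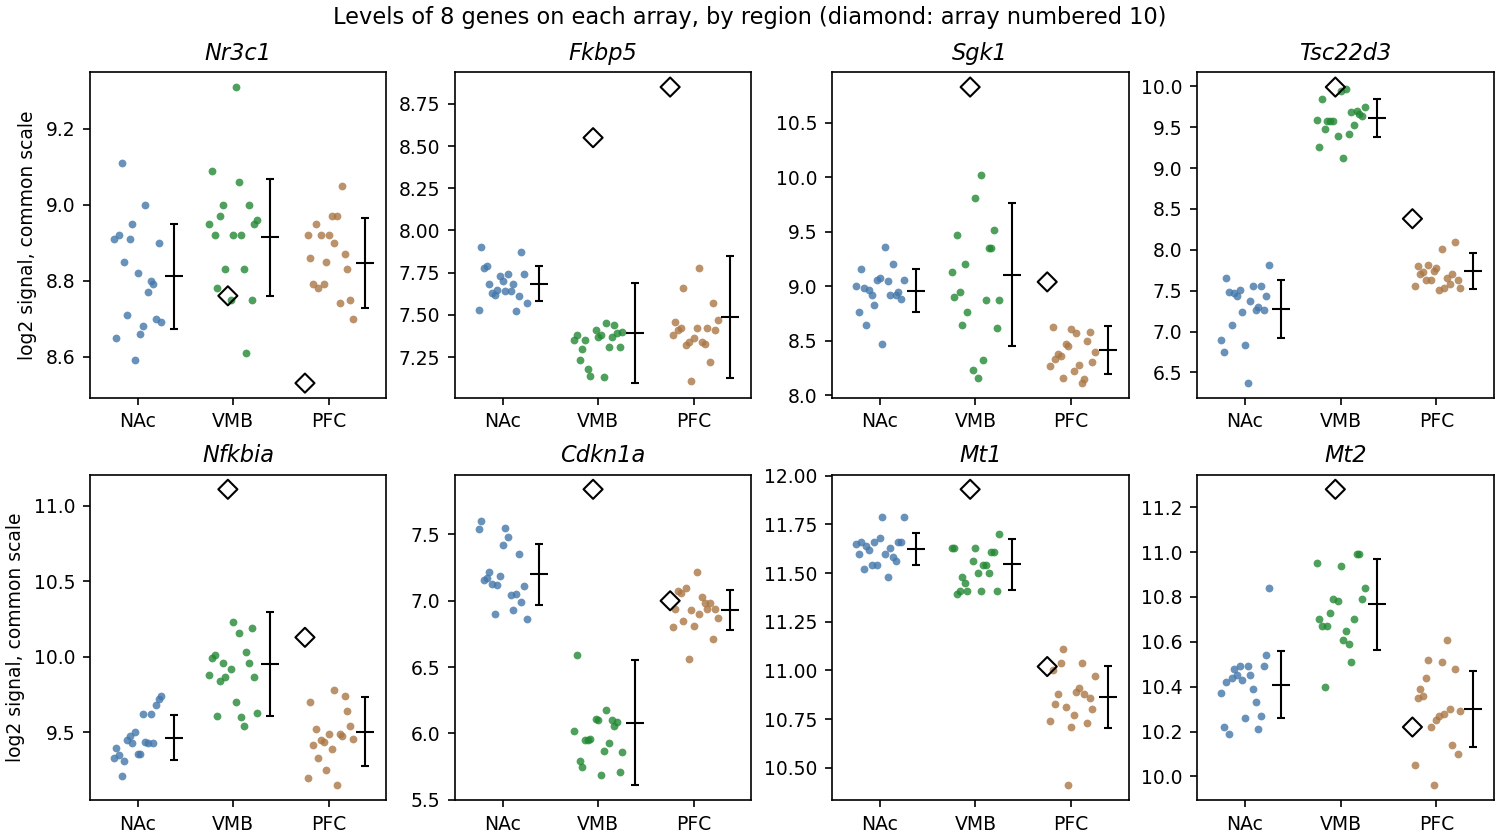
Log2 signal on the common scale (y axis) of 8 genes on each of 19 arrays in NAc, VMB and PFC (x axis). Each point is an array, diamonds are the arrays numbered 10, and bars are the mean ± SD. *Tsc22d3* lies at 9.12 or above in VMB and at 8.38 or below in PFC, and the *Fkbp5* diamonds lie at 8.55 in VMB and 8.85 in PFC.

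*Cdkn1a* was lowest in VMB, at 6.86 to 7.60 in NAc (median 7.16), 5.69 to 7.84 in VMB (median 5.96) and 6.56 to 7.22 in PFC (median 6.94). The VMB range overlapped both others, and its highest value was the array numbered 10. NAc minus VMB was 1.12 (SE 0.0988, adjusted p = 9e-16), or 2.17-fold, and VMB minus PFC was -0.85 (adjusted p = 1.64e-11). Without the arrays numbered 10 these were 1.22 and -0.94. NAc minus PFC was 0.27 (adjusted p = 0.0117). It passed with the replicate number as a block, at 0.29 (adjusted p = 0.00256), with array-median centring, at 0.29 (0.00562), and without the arrays numbered 10, at 0.27 (0.000161). The other *Cdkn1a* probeset, 1421679_a_at, gave -0.07 for NAc minus PFC (adjusted p = 0.35), so the order of these regions depended on the probeset. It gave 0.83 for NAc minus VMB and -0.89 for VMB minus PFC. *Nfkbia* was highest in VMB, with means of 9.47 ± 0.15 in NAc, 9.95 ± 0.34 in VMB and 9.51 ± 0.23 in PFC (SD, n = 19 each). VMB minus PFC was 0.45 (adjusted p = 1.16e-06) and NAc minus VMB -0.49 (1.8e-07), while NAc minus PFC was -0.04 (95% interval -0.20 to 0.12). Without the arrays numbered 10 they were 0.42, -0.42 and -0.01. Its probeset 1448306_at gave 0.44 for NAc minus PFC (adjusted p = 1.67e-06), so the order of NAc and PFC depends on the probeset, and in NAc the probeset with the highest mean ran against 1420089_at at r = -0.612 across arrays.

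*Sgk1* was lower in PFC, at 8.47 to 9.36 in NAc (median 8.97), 8.16 to 10.83 in VMB (median 8.95) and 8.11 to 9.04 in PFC (median 8.38). The ranges overlapped, and VMB covered most of both others. NAc minus PFC was 0.55 (SE 0.13, adjusted p = 0.000147) and VMB minus PFC 0.69 (3.07e-06), while NAc minus VMB was -0.15 (95% interval -0.40 to 0.11). Without the arrays numbered 10 they were 0.58, 0.63 and -0.05. *Fkbp5* was at 7.52 to 7.90 in NAc (median 7.68), 7.13 to 8.55 in VMB (median 7.37) and 7.11 to 8.85 in PFC (median 7.41), the upper ends of VMB and PFC being the arrays numbered 10. NAc minus VMB was 0.29 (SE 0.0867, adjusted p = 0.00174) and VMB minus PFC -0.10 (95% interval -0.27 to 0.07), and without the arrays numbered 10 they were 0.36 and -0.09. NAc minus PFC was 0.20 (adjusted p = 0.0341) and did not pass. It passed with the replicate number as a block, at 0.26 (adjusted p = 3.35e-08), and without the arrays numbered 10, at 0.27 (1.55e-08). The second probeset gave 0.49 for NAc minus PFC (adjusted p = 8.55e-10), 0.28 for NAc minus VMB (0.000115) and 0.21 for VMB minus PFC (0.00248). The probesets of *Fkbp5* therefore had opposite signs for VMB minus PFC.

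*Nr3c1* differed little by its brightest probeset, with means of 8.81 ± 0.14 in NAc, 8.91 ± 0.16 in VMB and 8.85 ± 0.12 in PFC (SD, n = 19 each). NAc minus PFC was -0.03 (95% interval -0.12 to 0.05), VMB minus PFC 0.07 (-0.02 to 0.16) and NAc minus VMB -0.10 (-0.19 to -0.01, adjusted p = 0.0332), and none passed. Probeset 1460303_at gave VMB values of 7.49 to 8.44, against 8.22 to 8.63 in PFC, a difference of -0.43 (adjusted p = 3.15e-09). It gave 0.30 for NAc minus VMB (adjusted p = 7.55e-06). The dim probeset 1421866_at gave -0.70 for both NAc minus PFC and NAc minus VMB, so the evenness of the receptor transcript holds for 1 of its 3 probesets.

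Around the receptor, 14 partner genes of 21 listed were measured, with genes higher and lower in each contrast. Among all probesets 38.6% were higher and 33.9% lower for NAc minus PFC. The shares were 37.7% and 35.2% for VMB minus PFC, and 39% and 35.7% for NAc minus VMB. For NAc minus PFC 3 were higher and 10 lower (median -0.21, against 0.06 over all genes). For VMB minus PFC 4 were higher and 7 lower (median -0.07, against 0.04), and for NAc minus VMB 5 were higher and 9 lower (median -0.22, against 0.02). *Hsd11b1* averaged 7.25 in NAc, 8.85 in VMB and 8 in PFC, and NAc minus VMB was -1.60 (adjusted p = 2.21e-37). The coregulator gene *Nrip1* averaged 8.15 in NAc, 6.48 in VMB and 7.87 in PFC, and *Ncoa1*, a receptor coactivator, was higher in NAc than in VMB by 1.17 (adjusted p = 7.99e-35). Of the 22 further targets 8 were higher and 7 lower for NAc minus PFC. Their counts were 6 and 8 for VMB minus PFC, and 9 and 9 for NAc minus VMB. Their medians were 0.04, -0.04 and -0.11, against 0.06, 0.04 and 0.02 over all genes. Both directions were thus found in each contrast, as they were over all probesets. *Zbtb16*, a transcription factor gene, averaged 4.67 in NAc, 5.28 in VMB and 7.63 in PFC, with NAc minus PFC at -2.96 (adjusted p = 3.27e-37), and *Cebpb*, also a transcription factor gene, gave -1.27 for NAc minus PFC.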

How the data were processed

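The authors extracted RNA of single mice, hybridized it to Affymetrix mouse expression arrays and deposited RMA signals on the log2 scale. Probes were named through the platform annotation, in which 20380 probesets carry 1 symbol, 691 several and 1555 none, with symbols updated through RefSeq. The members and lists were chosen with earlier results of these data known. A gene was reported through its single-symbol probeset with the highest mean, and all probesets of the members were examined. Probesets reaching 4.5 on at least 1 array were tested. Regions were compared after quantile normalization of all 57 arrays with limma 3.58.1 (R 4.3.3), and gene pairs within a region on deposited values, with 1 gene as predictor of all others. Benjamini-Hochberg adjustment covered all tested probesets, at a false discovery rate of 1% as in the study. Permutation p-values used 100000 two-sided permutations. Genes named from the lists were those differing by more than 1, and those named for the arrays numbered 10 were chosen after their values were seen. Leaving out the arrays numbered 10 in region and between-region comparisons was also chosen after seeing the data. Methods were tested on simulated data with independent noise for each probeset. That setting lacks the shared variation and the outlying arrays seen here, so it does not cover them. Precision is limited by 19 arrays per region.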

Additional observations from a re-analysis of the deposited data

How the results depend on the processing

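The count of the 8 genes that differed for NAc minus PFC was 3, and it was 7 on deposited values, 5 with array-median centring, 5 with the replicate block, 5 without the arrays numbered 10, and 6 when any probeset counted. Asking for a difference beyond 1 left 0 for NAc minus PFC, 1 for VMB minus PFC and 1 for NAc minus VMB. Differences that turned sign on deposited values, which carry the shift between regions, were those of *Nr3c1* (0.63), *Tsc22d3* (0.19) and *Nfkbia* (0.64) for NAc minus PFC, and of *Nr3c1* (0.53), *Sgk1* (0.49), *Mt2* (0.29) and *Nfkbia* (0.17) for NAc minus VMB. With array-median centring *Nr3c1* gave 0.02, -0.01 and 0.02 for NAc minus PFC, VMB minus PFC and NAc minus VMB, and *Nfkbia* 0.02 for NAc minus PFC. With the replicate block *Nfkbia* gave 0.01 for NAc minus PFC. Same-numbered arrays did not deviate together throughout (mean r 0.0837 for NAc and VMB, 0.0618 for NAc and PFC, 0.013 for VMB and PFC), and 2, 1 and 1 of 18 arrays correlated best with their own number. The study hybridized RNA of each mouse from every region, but the sources do not say whether a number stands for 1 mouse, so the block is given as an alternative. It made calls of *Fkbp5* and *Cdkn1a* for NAc minus PFC and changed no other call. Array-median centring made *Mt2* pass for NAc minus PFC, at 0.16 (adjusted p = 0.00812). With the first principal component the VMB count was 6, without the *Sgk1* and *Tsc22d3* pair. Called pairs in NAc, 2, numbered 1 with Spearman's rho, 0 with the first principal component, 1 with oligodendrocyte markers as covariate and 1 with quantile normalization. The 4 pairs in VMB numbered 0 with Spearman's rho. Leaving out each array in turn gave 1 to 3 pairs in NAc, 1 to 6 in VMB and 0 to 1 in PFC. The count was 1 without NAc array 1, 3, 6, 7, 8, 9, 13, 14, 16 or 19, 1 without VMB array 10, and 1 without PFC array 9. The between-region count of 1 was 0 with Spearman's rho and 0 without the arrays numbered 10. The cause of these changes was not tested.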
